A study of Mus musculus with 9 samples.

Results

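Adult mouse cornea and adult mouse lens, the transparent tissues of the front of the eye, were set against the opaque flexor digitorum longus tendon on Affymetrix arrays. The members were chosen by label: 3 arrays of adult cornea, 2 of adult lens and 2 of tendon, together 7 of the 9 arrays of the series. Cornea and lens entered as 2 tissue means of equal weight, and a probe set counted as lying on 1 side of tendon only where every cornea array and every lens array lay on that side of both tendon arrays.

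All 7 arrays came from 7-week-old mice, and no strain, sex, mutation or treatment is named in the labels. The corneas were dissected away from the limbus and scraped to enrich the stroma, which leaves part of the epithelium, and 3 independent RNA preparations were made. For lens and for tendon, tissue was pooled for each of 2 independent RNA preparations. The p-values below therefore measure the spread between RNA preparations, and the small number of arrays limits their precision. The remaining 2 arrays hold cornea from postnatal day 10 (P10), prepared in the same way. They enter the filter and the estimate of the spread but not the contrast, and their levels are given without a test. The cornea arrays had also served in an earlier study, in which lens and tendon arrays are not named, so tissue and array series cannot be told apart in a contrast with tendon. In whole tissue, fewer cells of a type and less RNA per cell also cannot be told apart.

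Cornea and tendon are both built largely of collagen I fibrils. Corneal fibrils are thin and evenly spaced, with small leucine-rich proteoglycans such as decorin, lumican and keratocan on their surface, and the tissue has no blood vessels. Tendon fibrils are thick, run in parallel and sit in a tissue with vessels, nerves and a junction to muscle. The lens holds no fibrillar stroma. Its fibre cells lose their organelles and fill with crystallins, soluble proteins that give the lens its refractive index. Corneal cells hold large amounts of soluble enzymes such as aldehyde dehydrogenase 3A1 and transketolase, which by analogy have been called corneal crystallins. Skeletal muscle, by contrast, rests on sarcomeric myosin, actin and troponin and on a dense set of mitochondria.

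Each array gives 1 expression index for each probe set, on a linear scale in arbitrary units that can fall below 0. The median index of the 7 adult arrays lay between 67.7 and 79.6. Across the tested probe sets, Pearson's r of the log2 values was 0.397 to 0.519 between cornea and lens arrays, 0.512 to 0.538 between cornea and tendon and 0.336 to 0.377 between lens and tendon, so the transparent tissues were not closer to each other than cornea was to tendon. Arrays of the same tissue correlated at 0.869 to 0.927 in cornea, 0.953 in lens and 0.978 in tendon. Cornea replicate 1 had a 3'-to-5' ratio of 2.25 for the Gapdh control and 4.69 for the actin control, against at most 1.04 and 2.07 on the other adult arrays.

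The tissue labels were checked against defining markers, with values at or below 0 counted as 0. The cornea markers Krt12, Aldh3a1, Kera and Krt5 summed to 12869 to 16139 index units in cornea, 2188 to 2586 in lens and 604 to 698 in tendon, where Aldh3a1 was at or below 0. That sum rested on Krt12 and Aldh3a1, since Kera (144 to 311 in cornea, 213 to 236 in tendon) and Krt5 (62.0 to 142 in cornea, 84.2 to 111 in tendon) overlapped between cornea and tendon. The lens markers Cryaa, Crybb2, Mip and Bfsp1 summed to 2215 to 3985 in cornea, 18683 to 19452 in lens and 70.2 to 88.4 in tendon, where Crybb2 was at or below 0. Of the tendon markers, Scx, Fmod and Col1a1 summed to 2468 to 2576 in cornea, 133 to 294 in lens and 13858 to 15606 in tendon, while Tnmd has no probe set here. The skeletal muscle markers Ckm, Acta1, Tnnt3 and Mylpf, in contrast, summed to 56.4 to 105 in cornea, 66.7 to 110.4 in lens and 17595 to 20784 in tendon, so the tendon RNA held muscle transcripts at a high level. Cornea also held each of the lens markers above its tendon level, mostly through Cryaa and Crybb2. Mip (27.2 to 37.7 in cornea, 11.7 to 14.2 in tendon) and Bfsp1 (61.5 to 79.5 in cornea, 42.6 to 46.3 in tendon) lay only slightly above. Of the cornea markers, lens held Krt12 (1603 to 1758) and Aldh3a1 (484 to 696) above tendon. Kera was lower in lens (7.69 to 15.8) than in tendon, and Krt5 (92.6 to 117 in lens) overlapped tendon. Of the epithelial markers Krt5, Krt14, Cdh1 and Dsp, the sum was 4262 to 4526 in cornea, 312 to 420 in lens and 268 to 583 in tendon.

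Testing was limited to probe sets with an index no lower than the median of the array on 2 or more of the 9 arrays, namely 8154 probe sets for 6109 genes, each gene represented by its brightest probe set. Differences are given as log2(index + 16), cornea and lens minus tendon, with the standard error (SE) of the fit, and understate the differences of dim genes. A probe set was called where the adjusted p was under 0.05 and every cornea and lens array lay on the same side of both tendon arrays. By that rule 866 probe sets were higher in cornea and lens (10.6% of those tested) and 1466 were lower (18%), out of 1075 (13.2%) and 1680 (20.6%) that lay on the side in question on every array. At gene level the counts were 660 higher (10.8%) and 1094 lower (17.9%), and the median difference of all tested genes was 0.03. Where cornea and lens each had to pass against the same tendon arrays, 339 genes were higher (5.55%) and 792 lower (13%). A difference of at least 2-fold in both tissues was found for 193 called genes above tendon (3.16%) and 535 below (8.76%), and of at least 16-fold for 11 above and 54 below. Calls in the lower direction were therefore more frequent and reached further. Without tendon replicate 1 the higher calls numbered 575 probe sets, and calls in both tissues numbered 193 higher without tendon replicate 1, 250 higher without tendon replicate 2 and 692 lower without tendon replicate 2, against 436 higher (5.35%) and 1053 lower (12.9%) probe sets with all arrays.

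**Figure D1:**
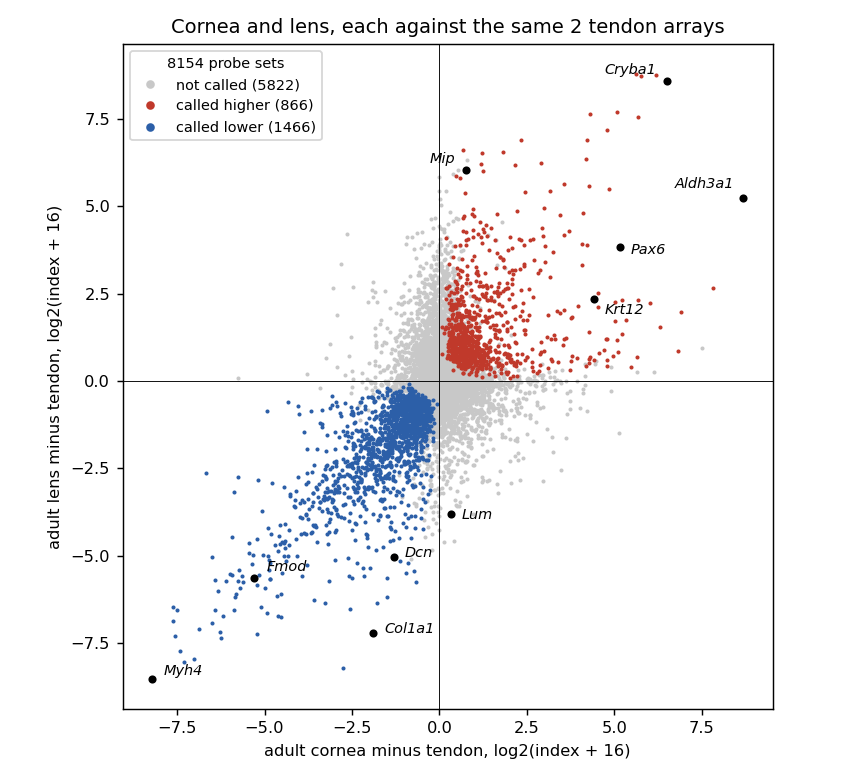
Each point is 1 of the 8154 tested probe sets, with adult cornea minus tendon on the x axis and adult lens minus tendon on the y axis, both in log2(index + 16). Called sets, 866 higher in red and 1466 lower in blue, lie in the upper right and lower left quadrants, which the call requires, and Lum lies at 0.32 for cornea and -3.80 for lens. Both axes use the same 2 tendon arrays.

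The genes furthest above tendon in both tissues were led by lens crystallins. Ranked by the smaller of the 2 tissue differences, the 12 highest were Cryba1, Crybb2, Klk1b8, Cryaa, Crygc, Aldh3a1, Crygd, Sag, Crygb, Sfrp1, Cryge and Pax6, out of 141 genes at least 2-fold higher in both tissues and with at least 100 units in the lower of them. Genes named outside this ranking, the 3 leading members of each list and the standard markers were chosen after their values were seen. Of 12 tested genes in the crystallin list 8 were higher than in tendon and 1 was lower, with a median difference of 5.63. Cryaa, the small heat shock protein alpha A-crystallin, had an index of 1279.7, 2443 and 2078 in cornea and 6405 and 7231 in lens, against 12.2 and 31.7 in tendon. Its difference was 6.61 ± 0.32 (SE, adjusted p = 1.87e-07). Every cornea array thus lay far above tendon, and both lens arrays lay above every cornea array. Cryba1, a beta-crystallin, had 1147, 1747 and 1468 in cornea, 5926 and 6202 in lens and -19.01 and -9.04 in tendon, so it was at or below 0 in tendon and no fold can be given. Crybb2, another beta-crystallin, had 846, 1441 and 1250.3 in cornea, 6628 and 7122 in lens and -52.4 and -36.9 in tendon, and tendon was again below 0. The gamma-crystallins Crygb, Crygc, Crygd, Cryge and Crygs are structural proteins of lens fibre cells, and all 5 were called higher. Crygc had 627, 971 and 750.3 in cornea, 6486 and 7492 in lens and -77.7 and -67.9 in tendon. Crygs, the only one with a tendon level near 100 units, had 1230.5, 1605 and 1631 in cornea, 6002 and 6652 in lens and 105 and 119 in tendon. In all 8 of these genes the lowest lens array exceeded the highest cornea array, and all 8 were also higher in lens than in cornea by the test of that difference. Beta and gamma members resemble each other in sequence, and the probe sets of Crygd and Cryge are of a design that can match related transcripts, so these values may be shared among members. Klk1b8, a member of the large kallikrein family of proteases, had 602, 933 and 1084 in cornea, 6592 and 6843 in lens and -61.4 and -25.04 in tendon and ranked among the crystallins, though near-identical kallikrein genes could share its probe set. Mip, a channel restricted to lens fibres, read 27.2, 34.7 and 37.7 in cornea beside these cornea values, and carry-over of lens RNA into the corneal preparations was not tested.

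The crystallin list held exceptions. Cryab, alpha B-crystallin, which muscle also uses as a chaperone, was not a member: it had 226, 250.5 and 220.5 in cornea, 3252 and 2958 in lens and 356 and 371 in tendon, so cornea lay below tendon (-0.61, adjusted p = 0.0273) and lens above it (3.04, adjusted p = 1.42e-06). Cryl1, a lambda-crystallin relative that acts as an L-gulonate dehydrogenase and is a lens crystallin in rabbit, was lower in both tissues, with 72.4, 60.8 and 68.1 in cornea, 50.3 and 91.6 in lens and 122 and 141 in tendon. Its call was lost without either tendon array. A second probe set of Crygd was called lower at -3.20 (adjusted p = 1.86e-06), opposite to the brighter one at 6.38.

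**Figure D2:**
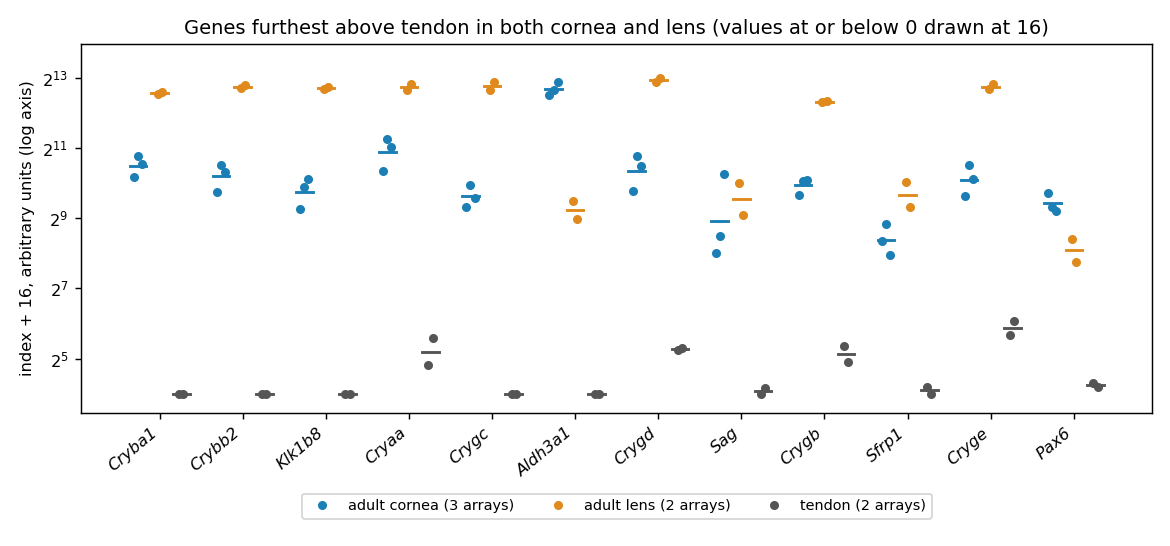
Points are single arrays of the 12 genes furthest above tendon in both tissues, as index + 16 on a log axis, with adult cornea left, adult lens in the middle and tendon right for each gene, and bars at the mean of the log2 values. All cornea and lens points lie above all tendon points. Lens exceeds cornea in the crystallins, while Aldh3a1 and Pax6 are higher in cornea.

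Promoters are shown for 2 crystallins because both carry the letters of a binding site of large Maf proteins, transcription factors of lens fibre cells. The window runs from 250 bases before to 50 after the RefSeq start on build GRCm38.p6. The letters searched were TGCTGAC (a Maf half-site) and CAGCTG (an E-box, the element read by basic helix-loop-helix factors), both strands, and both were chosen after the sequences had been seen. Capitals mark these letters. Cryaa lies on the plus strand at chr17:31677681-31677980, and Cryba1 on the minus strand at chr11:77725244-77725543.
Cryaa: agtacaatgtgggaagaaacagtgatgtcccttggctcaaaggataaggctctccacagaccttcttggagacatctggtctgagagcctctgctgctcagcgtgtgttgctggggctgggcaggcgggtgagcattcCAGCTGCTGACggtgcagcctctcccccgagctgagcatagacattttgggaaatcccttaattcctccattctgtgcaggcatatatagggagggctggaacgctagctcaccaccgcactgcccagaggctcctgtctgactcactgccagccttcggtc
Cryba1: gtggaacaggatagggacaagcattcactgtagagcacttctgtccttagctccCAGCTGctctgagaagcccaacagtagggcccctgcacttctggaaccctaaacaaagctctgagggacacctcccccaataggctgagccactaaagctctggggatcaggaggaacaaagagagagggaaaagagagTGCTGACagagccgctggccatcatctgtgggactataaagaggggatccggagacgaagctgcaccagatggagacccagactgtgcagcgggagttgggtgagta
In Cryaa the E-box spans bases -112 to -107 from the start and overlaps the Maf half-site at -108 to -102. In Cryba1 the E-box lies at -196 to -191 and the half-site at -57 to -51. Among the 12 highest genes, 10 have a promoter in the table and 3 of these (30%) hold the half-site, Cryaa, Cryba1 and Klk1b8, compared with 5.28% of all 27025 genes of the table. A match describes the letters and does not show binding.

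Lens fibre membrane and cytoskeleton genes were also above tendon, with very unequal levels in the transparent tissues. Of 7 tested genes 4 were called higher and 0 lower, with a median of 2.26. Mip, the aquaporin 0 water channel of fibre cells, had 27.2, 34.7 and 37.7 in cornea, 1918 and 1799.6 in lens and 11.7 and 14.2 in tendon. Bfsp1, the beaded filament protein filensin, had 61.5, 65.7 and 79.5 in cornea, 3731 and 3300.0 in lens and 46.3 and 42.6 in tendon. Caprin2, an RNA granule protein of lens fibres, had 29.7, 23.6 and 20.1 in cornea, 801 and 492 in lens and 8.69 and 8.40 in tendon. For all 3 the lens values stood far above cornea, and the cornea values stood just above tendon. The cornea-minus-tendon difference was 0.76 for Mip (adjusted p = 0.0212), 0.72 for Caprin2 (adjusted p = 0.0333) and 0.48 for Bfsp1 (adjusted p = 0.0646). Slc2a1, the GLUT1 glucose transporter, had 243, 301 and 167 in cornea, 709 and 486 in lens and 80.3 and 79.6 in tendon and was more evenly placed.

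Photoreceptor genes formed another group above tendon. Of 11 tested genes 8 were higher and 0 lower, with a median of 2.32. Sag, the arrestin that binds activated rhodopsin, had 239.9, 346 and 1204 in cornea, 1015 and 533 in lens and -5.27 and 1.81 in tendon (5.16 ± 0.52, adjusted p = 2.88e-05). Gnat1, rod transducin alpha, had 14.8, 191 and 120.1 in cornea, 905 and 582 in lens and 1.77 and 1.53 in tendon. Both ranged widely within a tissue, and cornea replicate 1 was the lowest cornea array for both. Pde6b, a subunit of the rod phosphodiesterase, had 66.8, 119 and 333 in cornea, 311 and 254 in lens and 20.2 and 12.3 in tendon. Guca1a, a guanylate cyclase activator of photoreceptors, had 522, 637 and 519 in cornea, 192 and 109 in lens and 22.4 and 19.2 in tendon, higher in cornea than in lens by 1.83 (adjusted p = 0.000181). The photoreceptor markers Sag, Gnat1 and Rcvrn, 3 of 4 listed, summed to 268 to 1435 in cornea, 1183 to 2052 in lens and 3.05 to 17.3 in tendon. Whether retinal RNA in the dissected tissue contributed was not tested. Of 7 pigment cell genes 2 were higher and 2 lower (28.6% each, compared with 10.8% and 17.9% of all tested genes, median 0.45). Rlbp1, a retinaldehyde carrier, and Oca2 were higher, and Rrh and Dct lower. The lower count was 1 without any single adult array except cornea replicate 3, and the higher count was 1 without either tendon array. Counting other processing settings as well, the lower count changed in at least 12. The pigment cell markers Pmel, Tyrp1, Dct and Tyr summed to 517 to 671 in cornea, 438 to 470 in lens and 619 to 633 in tendon.

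Of 13 tested soluble enzymes of the cornea and enzyme crystallins 7 were higher and 1, Ldha, was lower, with a median of 1.03 (2 lower without cornea replicate 3). Aldh3a1, the aldehyde dehydrogenase that is a main soluble protein of mouse cornea, had 5874, 6378 and 7563 in cornea, 696 and 484 in lens and -6.41 and -14.1 in tendon. It was at or below 0 on both tendon arrays, and all lens arrays lay below all cornea arrays. Tkt, transketolase of the pentose phosphate pathway, had 4459.8, 4496 and 4689.9 in cornea, 896 and 475 in lens and 115 and 133 in tendon (3.64 ± 0.22, adjusted p = 7.44e-07). Gsto1, an omega-class glutathione transferase, had 5675, 5354 and 6138 in cornea, 854 and 659 in lens and 136 and 137 in tendon. Gsta4, which conjugates the lipid aldehyde 4-hydroxynonenal, had 3557, 3768 and 3849 in cornea, 212 and 65.6 in lens and 31.8 and 30.9 in tendon, the widest gap between the transparent tissues of these enzymes at 4.77 (cornea minus lens, adjusted p = 2.62e-06). Aldh1a1, a retinaldehyde dehydrogenase, had 655, 708 and 489 in cornea, 1503 and 720.2 in lens and 172 and 185 in tendon, with a cornea-lens difference that did not pass (cornea minus lens -0.76, 95% interval -1.51 to -0.01, adjusted p = 0.0847). Ldha, lactate dehydrogenase A, had 1391, 1489 and 1273 in cornea, 879.6 and 469 in lens and 2761 and 3423 in tendon.

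Epithelial keratins, junction and barrier genes stood above tendon mainly through cornea. Of 34 tested genes 11 were higher and 1 was lower, with a median of 1.65, and 26 of the 34 were called higher in cornea than in lens by the test of that difference, compared with 27.7% of all genes. Of the epithelial markers, Krt14, Cdh1 and Dsp were higher on every cornea array than on any lens or tendon array, while Krt5 (62.0 to 142 in cornea, 92.6 to 117 in lens, 84.2 to 111 in tendon) was not, and the part played by the remaining epithelium was not tested. Krt12, the keratin of corneal epithelium, had 6614, 6685 and 8290.3 in cornea, 1758 and 1603 in lens and 401 and 257 in tendon (3.37 ± 0.18, adjusted p = 3.87e-07). Dsc2, a desmosomal cadherin, had 1137, 871 and 571 in cornea, 60.5 and 48.96 in lens and 5.14 and 5.03 in tendon. Itga6, the integrin of hemidesmosomes, which lens epithelium also carries, had 255, 142 and 145 in cornea, 262 and 133 in lens and 25.6 and 48.9 in tendon, with cornea and lens overlapping each other and both above tendon. Cdh1, E-cadherin, had 514, 372 and 227 in cornea, 189 and 128 in lens and 58.9 and 45.7 in tendon. Krt8, a simple-epithelium keratin, had 148, 159 and 126 in cornea, 88.7 and 103 in lens and 19.96 and 31.8 in tendon, so the tissues kept their order from cornea through lens to tendon in both genes. Tjp1, the tight junction protein ZO-1, was the lower call, with 321, 248 and 379 in cornea, 234 and 228 in lens and 2082 and 1995 in tendon, but its other probe set was called higher at 1.09 (adjusted p = 0.0159). Of 13 epithelial transcription and signalling genes 2 were higher (15.4%, compared with 10.8% of all tested genes) and 0 lower (median 0.48). These were Esrp1, an epithelial splicing factor, with 544, 402 and 232 in cornea, 82.02 and 86.5 in lens and 18.7 and 6.56 in tendon, and Fgfr2, a receptor for fibroblast growth factors, with 284, 409.9 and 295 in cornea, 459 and 275 in lens and 92.2 and 78.3 in tendon.

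Among 26 tested transcription factors of the eye field, lens and cornea, 5 were higher (19.2%) and 7 lower (26.9%), and the median was 0.25. Of all tested genes, 10.8% were higher and 17.9% lower. Pax6, the paired-domain factor needed for eye formation and for both tissues, had 833, 619 and 579.5 in cornea, 326 and 199 in lens and 3.80 and 2.39 in tendon. Its difference on the offset log2 scale was 4.50 ± 0.23 (adjusted p = 2.97e-07), with every cornea array above both lens arrays and both tissues far above tendon, which lay too near 0 for a fold. Elf3, an ETS factor of epithelia, had 1005, 1274 and 1028 in cornea, 124 and 149.9 in lens and 47.99 and 35.6 in tendon. Pitx3, a homeobox factor of lens, had 219, 164 and 190.2 in cornea, 386 and 247 in lens and 127 and 106 in tendon, a small excess that passed in lens (1.30) and not in cornea (0.64, adjusted p = 0.0515). Tfap2a and Tfap2c, AP-2 factors of surface ectoderm, were the other higher calls, at 0.53 and 0.79. The higher count was 3 without tendon replicate 2. The lower calls were Dach1, Foxd3, Id3, Klf6, Six6, Sox1 and Six3. Id3, an inhibitor of basic helix-loop-helix factors, had 82.02, 113 and 96.5 in cornea, 169 and 88.5 in lens and 296 and 337 in tendon. Klf6, a zinc finger factor, had 112, 88.3 and 82.3 in cornea, 81.9 and 55.6 in lens and 223 and 185 in tendon. In neither gene did a cornea or lens array reach tendon. The Dach1 probe set read -8.84, 22.8 and -44.7 in cornea, -73.7 and -111 in lens and 1823 and 2055 in tendon, with 1 lens array below -100.

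Of 28 tested genes of Wnt, TGF-beta, BMP and IGF signalling, 3 were higher (10.7%, near the 10.8% of all tested genes). In the same list 12 were lower (42.9%, compared with 17.9%), and the median was -0.73. The lower count ranged from 7 to 14 over all processing settings. Sfrp1, a secreted Wnt antagonist, had 312, 443 and 229.9 in cornea, 1024 and 626 in lens and 2.12 and -2.37 in tendon and was near 0 in tendon (4.94 ± 0.27, adjusted p = 4.26e-07). Dkk3, a member of the dickkopf family, had 218, 469 and 222 in cornea, 1752 and 1108 in lens and 129.7 and 132 in tendon. Igfbp2, an IGF-binding protein, had 1314, 1269 and 946 in cornea, 74.9 and 28.8 in lens and 25.4 and 27.7 in tendon, so its excess lay in cornea (4.79) and lens did not pass alone (0.58, adjusted p = 0.152). In the other direction Igfbp6, which prefers IGF2, had 31.3, 41.8 and 62.2 in cornea, 81.9 and 53.3 in lens and 3688 and 3823 in tendon (-5.75 ± 0.22, adjusted p = 4.38e-08), with cornea and lens values interleaved and both far below tendon. Igfbp4, another IGF-binding protein, had 216, 155 and 123 in cornea, 104 and 30.1 in lens and 553 and 1101 in tendon, and its tendon replicates stood far apart. Secreted Wnt antagonists were called on both sides, with Sfrp1 above tendon and Frzb, Sfrp2 and Sfrp4 below it.

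Of 27 tested heat shock and chaperone genes 9 were higher and 1, Hspb8, was lower (median 0.49). Hsp90aa1, the inducible cytosolic HSP90, had 548, 638 and 527 in cornea, 1364 and 898 in lens and 184 and 209 in tendon (1.93 ± 0.20, adjusted p = 3.48e-05). Dnajb1, a co-chaperone of HSP70, had 140.3, 148 and 105 in cornea, 273 and 181 in lens and 28.1 and 38.4 in tendon. Dnajb6, of the same family, had 444, 406 and 278 in cornea, 346 and 246 in lens and 116 and 140.2 in tendon. Cornea and lens overlapped for Dnajb6 and did not for Dnajb1. Cct2, Cct5 and Cct8, subunits of the ring chaperone that folds actin and tubulin, were all called higher, with Cct5 at 554, 568 and 411 in cornea, 1269 and 861 in lens and 269.5 and 274 in tendon. Hspa1a, inducible HSP70, had 1171, 1009 and 679 in cornea, 73.3 and 47.7 in lens and 35.3 and 31.2 in tendon, an excess carried by cornea. Hspb8, a small heat shock protein abundant in muscle, had 129, 86.6 and 178 in cornea, 279.5 and 224 in lens and 391 and 452 in tendon. The lower count was 0 without tendon replicate 2 and 2 without cornea replicate 2.

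Ribosomal, proteasome and cell cycle lists are read against the 10.8% of all tested genes called higher and the 17.9% called lower. Of 25 tested ribosomal and translation genes 7 were higher and 2 lower (median 0.05), with Rpl10a at 1885, 2266 and 2138 in cornea, 1688 and 1347 in lens and 755 and 766 in tendon and Rpl13a at 129.6, 149.6 and 96.7 in cornea, 138 and 103 in lens and 48.6 and 54.6 in tendon. Rpl22 was one of the lower calls, at -1.19. The higher count was 3 when tendon replicate 1 and 4 when tendon replicate 2 was left out, and the lower count was 1 when any of 5 arrays was left out (cornea replicate 1 or 2, lens replicate 2 or either tendon replicate). Counting other processing settings as well, the lower count changed in at least 13 and ranged from 1 to 3. Of 30 proteasome and ubiquitin genes 5 were higher and 1 lower (median 0.14). Psmc2, an ATPase of the proteasome cap, had 433, 285 and 198 in cornea, 704 and 411 in lens and 135 and 156 in tendon, and Ube2d3, a ubiquitin-conjugating enzyme, was the lower call at -1.22. None of the 5 passed in both tissues separately, and leaving out tendon replicate 1 gave 0 and tendon replicate 2 gave 3. Of 29 cell cycle genes 6 were higher and 3 lower (median 0.42). Rrm2, the small subunit of ribonucleotide reductase, had 49.3, 70.02 and 55.6 in cornea, 374 and 546 in lens and -38.96 and -36.7 in tendon. Cdkn1b, the cyclin-dependent kinase inhibitor p27, had 399, 272 and 624 in cornea, 1235 and 1750.5 in lens and 225 and 157 in tendon, both highest in lens. Mcm2, a subunit of the replicative helicase, had 79.2, 165 and 111 in cornea, 62.00 and 67.3 in lens and 16.99 and 40.8 in tendon. Rb1, the retinoblastoma protein, was lower, with 118, 90.1 and 78.1 in cornea, 108 and 83.4 in lens and 186 and 231 in tendon.

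Of 13 tested transport genes 4 were higher (30.8%, compared with 10.8% of all tested genes). In this list 2 were lower (15.4%, near the 17.9% of all), and the median was 0.36. Atp1b3, a beta subunit of the sodium pump, had 1883, 1991 and 1369.5 in cornea, 2037 and 1155 in lens and 543 and 565 in tendon, with cornea and lens overlapping. Atp1b2, another beta subunit, had 12.99, 20.8 and 17.5 in cornea, 935 and 702 in lens and 2.37 and 5.52 in tendon, so its excess lay in lens. Gjb2, connexin 26, had 929, 804 and 602 in cornea, 33.5 and 49.8 in lens and 28.9 and 20.2 in tendon, an excess in cornea. Gja1, connexin 43, was not called, with 2303, 1979 and 1672 in cornea, 1022 and 494 in lens and 1546 and 1551 in tendon. Car3, a carbonic anhydrase of muscle and fat, was a lower call, with 216, 225 and 183 in cornea, 67.9 and 51.4 in lens and 4827 and 5389.6 in tendon. Aqp1, a water channel of vessels and corneal endothelium, was the other, and the lower count was 1 without either tendon array. Of 31 antioxidant and glutathione genes 3 were higher (9.68%, near the 10.8% of all tested genes). In the same list 10 were lower (32.3%, compared with 17.9%), fewer without tendon replicate 2, and the median was -0.20. Gclc, the catalytic subunit of glutathione synthesis, had 66.2, 49.1 and 79.4 in cornea, 168 and 99.8 in lens and 15.98 and 24.7 in tendon, and its partner Gclm was higher too, at 0.72. The extracellular enzymes Gpx3 and Sod3 were lower, Gpx3 with 74.03, 63.6 and 118 in cornea, 213 and 81.4 in lens and 914 and 723 in tendon. Sod3 had 98.5, 144 and 83.7 in cornea, 75.6 and 48.9 in lens and 613 and 656 in tendon, and Mgst1, a membrane-bound glutathione transferase, differed by -2.10.

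Muscle contraction genes were furthest below tendon. The 12 genes that ranked lowest by the smaller tissue difference were Myh4, Mb, Atp2a1, Tnnt3, Myh7, Ckm, Mylpf, Myl2, Cox6a2, Myh1, Des and Tnni2, out of 557 genes at least 2-fold lower in both tissues with at least 100 units in tendon. Of 29 tested contraction genes 27 were lower and 2 were called higher, with a median of -5.35. Over all processing settings of the closing section the lower count ranged from 8 to 27 and the higher count from 0 to 2. Genes found in tendon alone, such as Myh4, passed the filter only through the 2 tendon arrays, where they are high. Myh4, the fast IIB myosin heavy chain, had 4.62, 2.48 and 7.62 in cornea and 1.49 and 0.273 in lens, against 5579.9 and 6738 in tendon. Its difference was -8.36 ± 0.23 (SE, adjusted p = 1.02e-08). Myh7, the slow myosin of type I fibres, had 6.94, 33.3 and 12.7 in cornea, 1.76 and -0.952 in lens and 4257 and 4044 in tendon. Myh1, the IIX myosin, had 15.1, 17.02 and 25.95 in cornea, 11.8 and 20.2 in lens and 2767 and 3164 in tendon. Fast and slow fibre genes thus both stood near the bottom of the scale in cornea and lens. Tnnt3, fast troponin T, had 13.2, 19.1 and 20.1 in cornea, 21.7 and 26.8 in lens and 5919 and 6599 in tendon. Acta1, skeletal alpha-actin, had 20.1, 50.9 and 47.98 in cornea, 18.97 and 23.02 in lens and 3449 and 4307 in tendon. Des, the intermediate filament desmin, had 5.89, 30.3 and 11.1 in cornea, -5.94 and -8.61 in lens and 2192 and 2418 in tendon. Every array of cornea and lens lay at or below 50.9 units for these 6 genes, and every tendon array at or above 2192. The 2 higher calls went against the list. Myh2, the IIA myosin, had 25.4, 36.7 and 28.01 in cornea, 108 and 175 in lens and 22.6 and 19.6 in tendon. The Tnnc1 probe set read 49.6, 43.2 and 67.9 in cornea, 133 and 103 in lens and -1336 and -869.9 in tendon, and its negative tendon values were set to 0 before the test.

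Promoters of 2 of these genes are shown because the E-box CAGCTG is a site read by MyoD and myogenin, factors of muscle. Myh4 lies on the plus strand at chr11:67237562-67237861 and Ckm on the plus strand at chr7:19410844-19411143, from RefSeq on GRCm38.p6, with the E-box in capitals.
Myh4: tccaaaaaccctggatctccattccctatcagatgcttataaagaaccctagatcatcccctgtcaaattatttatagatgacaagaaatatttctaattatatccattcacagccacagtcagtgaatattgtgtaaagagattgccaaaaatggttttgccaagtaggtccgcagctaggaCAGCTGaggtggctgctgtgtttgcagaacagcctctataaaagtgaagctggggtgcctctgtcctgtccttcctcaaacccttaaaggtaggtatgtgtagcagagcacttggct
Ckm: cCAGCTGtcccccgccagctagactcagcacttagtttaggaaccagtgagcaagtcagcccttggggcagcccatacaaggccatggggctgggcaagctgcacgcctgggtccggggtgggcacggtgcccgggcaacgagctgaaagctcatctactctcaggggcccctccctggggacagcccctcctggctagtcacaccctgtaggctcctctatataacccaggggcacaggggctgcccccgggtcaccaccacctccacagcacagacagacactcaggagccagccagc
The E-box lies at -67 to -62 in Myh4 and at -249 to -244 in Ckm. It was found in 7 of the 9 lowest genes with a promoter in the table (77.8%), in 3 of the 10 highest (30%) and in 18.3% of all genes. Neither Myh4 nor Ckm holds TGCTGAC in this window, while 2 of the 9 do, Atp2a1 and Mb.

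Muscle energy, calcium and differentiation genes followed. Of 31 tested genes 25 were lower and 0 were called higher, with a median of -3.85. Mb, the oxygen carrier myoglobin, had -3.38, 11.1 and 1.38 in cornea, -10.03 and -5.14 in lens and 3225 and 3450.4 in tendon (-7.56 ± 0.22, adjusted p = 1.03e-08). Ckm, muscle creatine kinase, had 19.4, 12.9 and 12.03 in cornea, 3.90 and 19.6 in lens and 3349 and 3879.7 in tendon. Atp2a1, the calcium pump of fast muscle, had 8.65, 15.1 and 24.97 in cornea, 2.26 and 3.71 in lens and 4489 and 5529 in tendon, and its second probe set, less low in cornea and lens, had 93.6, 80.2 and 113 in cornea, 72.6 and 79.7 in lens and 5693 and 6812 in tendon. Cox6a2, the muscle form of a cytochrome c oxidase subunit, had 2.00, 4.55 and -0.421 in cornea, 18.4 and 30.3 in lens and 3408 and 3609 in tendon. In each of these probe sets tendon read at least 3225 units and cornea and lens at most 113. Leaving out cornea replicate 2 brought 2 higher calls to this list, and over all processing settings the lower count ranged from 12 to 25. Mb, Ckm and Cox6a2 also passed the filter only through the 2 tendon arrays. The muscle markers named above are themselves members of these 2 lists, and how much of the tendon signal is muscle was not tested.

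Mitochondrial and fuel genes were often lower as well. Of 52 tested genes of the respiratory chain, citrate cycle and ATP synthase 30 were lower and 1, Cox6a1, was higher (median -0.91). Without tendon replicate 2 the lower count was 18, and without that array or cornea replicate 2 the higher count was 2. Slc25a4, the mitochondrial ADP/ATP carrier of muscle, had 817, 824 and 484 in cornea, 984 and 636 in lens and 3955 and 4385 in tendon (-2.47 ± 0.24, adjusted p = 2.45e-05). Sdhc, a subunit of succinate dehydrogenase, had 146, 174 and 116 in cornea, 122 and 79.2 in lens and 634 and 664 in tendon. Cyc1, cytochrome c1, had 837, 689 and 1388 in cornea, 459 and 321 in lens and 3486 and 3540.1 in tendon. Of 18 fatty acid oxidation genes 10 were lower and 1, Cpt1a, was higher (median -0.85), with 5 lower without tendon replicate 2 and 0 higher without either tendon array. Hadhb, of the trifunctional protein, had 119, 167 and 82.2 in cornea, 79.3 and 47.4 in lens and 448 and 417 in tendon. Fabp3, the heart and muscle fatty acid carrier, had 6.27, 0.127 and 15.6 in cornea, 16.4 and 12.5 in lens and 576 and 454 in tendon. Crat, carnitine acetyltransferase, had 49.97, 63.9 and 56.6 in cornea, 55.1 and 58.3 in lens and 186 and 233 in tendon. Fabp3 was close to 0 in cornea and lens, while Hadhb and Crat kept a measurable level there. Of 19 glycolysis genes 10 were lower and 5 higher (median -1.57). Pfkm, muscle phosphofructokinase, had 126, 137 and 85.8 in cornea, 62.05 and 71.7 in lens and 1354 and 1611 in tendon. Eno3, muscle enolase, had 46.3, 49.1 and 53.9 in cornea, 561 and 294 in lens and 3449.9 and 4201 in tendon, with lens above cornea by the test of that difference (cornea minus lens -2.69, adjusted p = 2.02e-05).

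For 11 enzyme or carrier families with a muscle or fat form and another form both tested, the forms were set side by side. The pairs were picked after the values had been seen. The muscle or fat form was lower in 10, the other form was higher in 8, and both held in 7. Aldoa, the muscle aldolase, had 808, 1041 and 714 in cornea, 1272 and 679 in lens and 4398 and 5329 in tendon. Aldoc, the brain form, had 88.8, 157 and 77.8 in cornea, 1546 and 904 in lens and -15.3 and -8.05 in tendon. Scd1, the stearoyl-CoA desaturase of fat and liver, had 68.1, 75.9 and 41.8 in cornea, 45.7 and 20.96 in lens and 4638 and 4259 in tendon. Scd2 had 2514, 2580.3 and 2367 in cornea, 2496 and 1759 in lens and 609 and 941 in tendon. In all 4 genes both tendon arrays stood apart from every cornea and lens array. Fabp4, the carrier of adipocytes, had 17.04, 10.4 and 21.7 in cornea, 69.96 and 74.2 in lens and 1738 and 2163 in tendon. Fabp5, the epidermal form, had 571, 949.5 and 725 in cornea, 6267 and 6961 in lens and 358 and 224 in tendon. Slc2a4, the insulin-regulated glucose transporter, had 83.97, 67.9 and 115 in cornea, 21.7 and 4.17 in lens and 349 and 383 in tendon, opposite to Slc2a1. Hk2 and Hk1, the hexokinases, differed from tendon by -1.65 and 0.85, Pfkm and Pfkl by -3.85 and 0.75, and Cox6a2 and Cox6a1 by -7.03 and 1.18. Pgam2, muscle phosphoglycerate mutase, was the exception among the muscle forms and was not called. It had -0.189, 0.660 and 4.43 in cornea, 1133 and 869.7 in lens and 787 and 1124 in tendon. Its lens and tendon arrays were interleaved, so it failed the rule on sides (lens minus tendon 0.08, adjusted p = 0.845). Among the other forms, Cox7a2, Ckb and Slc25a5 were not called.

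**Figure D3:**
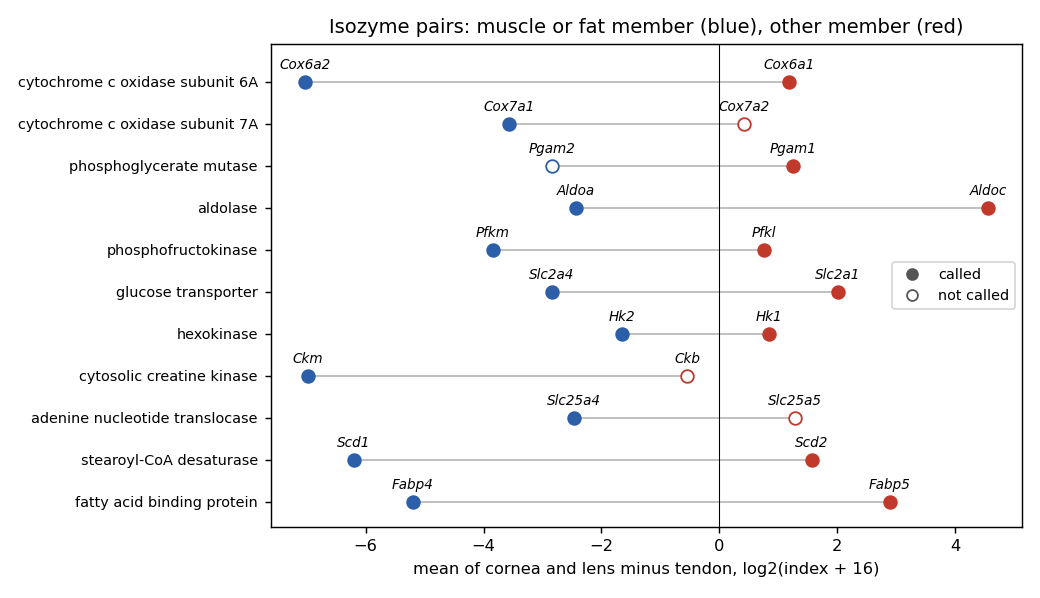
Each row is 1 of the 11 families, with the mean of cornea and lens minus tendon in log2(index + 16) on the x axis, the muscle or fat form in blue, the other form in red, and open circles for forms that were not called. The blue points lie left of 0 in all rows and the red points lie right of 0 in all rows except creatine kinase, where Ckb is at -0.55.

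Most collagen fibril genes were lower in both transparent tissues, and for collagen I cornea lay between tendon and lens. Of 14 tested fibrillar and fibril-associated collagens 11 were lower and 1 higher (median -1.87). Col1a1, the main fibril chain of both cornea and tendon, had 2283, 2315 and 2239.7 in cornea and 39.9 and 43.6 in lens, against 8130.2 and 8924 in tendon (-4.55 ± 0.13, adjusted p = 1.02e-08). Cornea was 3.72-fold and lens 148-fold lower on the offset scale. Col1a2, its partner chain, had 1203, 1404 and 975.1 in cornea, 29.4 and -49.3 in lens and 7758 and 8277 in tendon, the same order of tissues. Col3a1, the chain of collagen III in pliable tissue, had 75.8, 157 and 91.6 in cornea, 60.6 and 34.4 in lens and 3615 and 3898 in tendon, so cornea stood far nearer to lens than to tendon. Col5a2, of the collagen V that limits fibril diameter, had 381, 214 and 171 in cornea, 14.8 and 11.2 in lens and 1421 and 1431 in tendon. Col6a1, Col6a2, Col6a3, Col5a1, Col14a1, Col11a1 and Col9a1 were the other lower calls, with Col11a1 at 28.9, 14.1 and 17.5 in cornea, 15.4 and 8.41 in lens and 268 and 286 in tendon. Col11a2 was the higher call, with 541, 677 and 645 in cornea, 156 and 140.1 in lens and -44.7 and 121 in tendon, where the tendon arrays lay on opposite sides of 0.

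Small leucine-rich proteoglycans, which bind to collagen fibrils and shape them, divided. Of 7 tested genes 4 were lower and 0 higher, with 3 not called and a median of -3.17. Fmod, fibromodulin of tendon, had 123, 177 and 106 in cornea, 215 and 45.2 in lens and 5455 and 6342 in tendon. Chad, chondroadherin, had 54.6, 83.3 and 83.8 in cornea, 96.98 and 104 in lens and 5239 and 5617 in tendon (-5.74 ± 0.19, adjusted p = 1.96e-08). The difference between cornea and lens did not pass the test for either gene, with a cornea-minus-lens difference of 0.32 (95% interval -0.71 to 1.36) and -0.39 (-0.85 to 0.06). Dcn, decorin, had 2989.9, 2484 and 2922 in cornea, 242 and 157 in lens and 6588 and 7248 in tendon. Bgn, biglycan, had 569, 724 and 449.7 in cornea, 103 and 86.4 in lens and 2706 and 2235 in tendon, and both genes were lowest in lens with cornea between lens and tendon. Lum, lumican, had 1156, 783 and 595 in cornea, 35.2 and 28.5 in lens and 631 and 668 in tendon. Kera, keratocan of the corneal stroma, had 311, 183 and 144 in cornea, 15.8 and 7.69 in lens and 213 and 236 in tendon. Neither was a member, since for both genes the cornea arrays did not all lie on 1 side of tendon. The difference of cornea from tendon did not pass the test either (0.32, adjusted p = 0.403, for Lum and -0.14, adjusted p = 0.759, for Kera). Lens was lower than tendon in both (-3.80 and -3.13). Kera was called lower when cornea replicate 1 was left out. Ogn, osteoglycin, was low in cornea and high in lens and tendon, with 115, 69.8 and 95.3 in cornea, 1216 and 771 in lens and 1045 and 1208 in tendon.

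**Figure D4:**
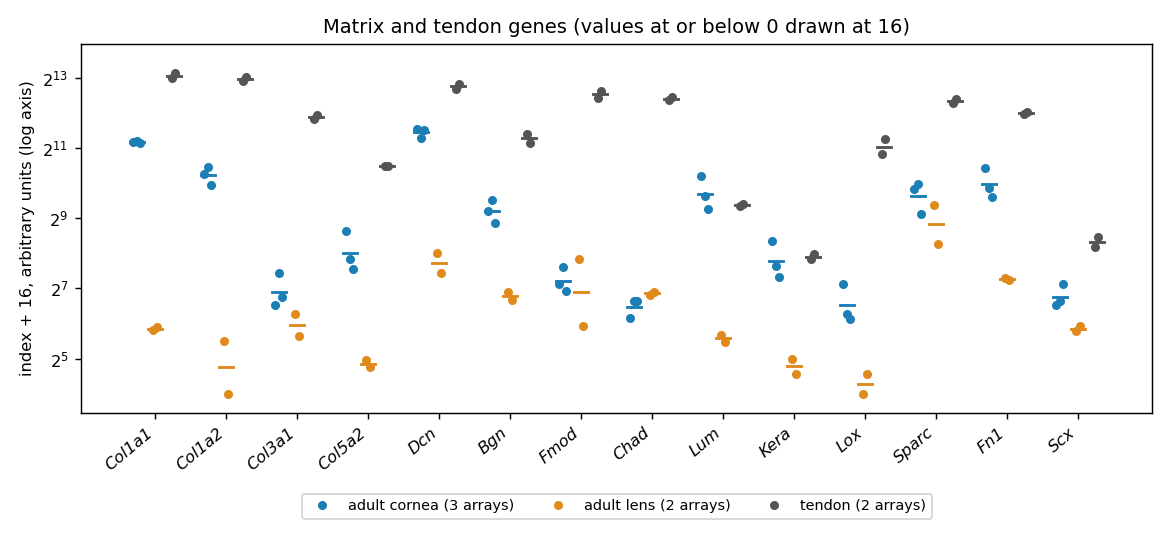
Points are single arrays of 14 matrix and tendon genes, as index + 16 on a log axis, with adult cornea left, adult lens in the middle and tendon right for each gene, and bars at the mean of the log2 values. For 12 of these genes all cornea and lens points lie below the tendon points, while for Lum and Kera cornea and tendon points overlap. Lens is the lowest tissue in most genes, with exceptions such as Chad.

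Other matrix groups were also lower. Of 28 tested elastic fibre and matricellular genes 20 were lower and 0 higher (median -1.93). Fn1, fibronectin, had 1361, 906 and 768 in cornea, 142 and 134 in lens and 4035 and 4179 in tendon. Sparc, a collagen-binding glycoprotein, had 889, 983 and 538 in cornea, 654 and 294 in lens and 4947 and 5379.9 in tendon. Ccn2, connective tissue growth factor, had 19.98, 31.3 and 25.5 in cornea, 95.5 and 41.4 in lens and 620.1 and 765 in tendon (-3.62 ± 0.25, adjusted p = 2.17e-06). Tnxb, tenascin X, had 20.9, 16.9 and 37.3 in cornea, 14.8 and 12.5 in lens and 321 and 400.0 in tendon. Matn2, a matrilin, had 17.2, 33.1 and 14.1 in cornea, 78.02 and 13.6 in lens and 601 and 647 in tendon. Tnc, tenascin C, had 39.2, 51.2 and 53.5 in cornea, 42.8 and 35.4 in lens and 252 and 263 in tendon. For Ccn2 and Matn2 the highest transparent array was a lens array, and for Tnxb and Tnc a cornea array. Mfap5, a glycoprotein of elastic microfibrils, was lower too, at -3.37. Of 13 collagen folding and crosslinking genes 5 were lower and 0 higher (median -1.11). Lox, which crosslinks collagen, had 125, 61.7 and 54.1 in cornea, -39.2 and 7.55 in lens and 1800.5 and 2418 in tendon. Serpinh1, the collagen chaperone HSP47, had 524, 556 and 275 in cornea, 580.0 and 321 in lens and 1545 and 1914 in tendon, with cornea and lens overlapping (95% interval of cornea minus lens -0.72 to 0.72). Pcolce, which enhances procollagen C-proteinase, had 309, 369 and 204 in cornea, 149.5 and 114 in lens and 1429 and 1578 in tendon.

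Basement membrane genes were mixed. Of 20 tested genes 6 were lower (30%) and 1, Lama3, was higher (5%), compared with 17.9% and 10.8% of all tested genes (median 0.04). Col15a1, a collagen of vessel and muscle basement membranes, had 8.51, 17.6 and 14.9 in cornea, 1.76 and -5.62 in lens and 811 and 858 in tendon. Lamb2, a laminin beta chain of muscle and nerve, had 36.5, 32.2 and 24.5 in cornea, 15.98 and 2.11 in lens and 243 and 243 in tendon. Lama4, a laminin alpha chain of vessels, was lower at -2.16. Lama3, the alpha chain of the laminin under epithelia, had 211, 268 and 154 in cornea, 29.7 and 38.7 in lens and 11.5 and 11.96 in tendon, highest in cornea. Of 13 metalloproteinase and inhibitor genes 4 were lower (30.8%) and 1 higher (7.69%), with a median of -0.15 and 2 higher without cornea replicate 2. Timp3, an inhibitor bound to matrix, had 241, 225 and 133 in cornea, 617 and 379 in lens and 968 and 1314 in tendon. Reck, a membrane-bound inhibitor, had 38.6, 31.6 and 35.9 in cornea, 53.4 and 61.8 in lens and 216 and 238 in tendon. Both were higher in lens than in cornea on every array. Timp2 was called higher, with 159, 199 and 150.2 in cornea, 439.7 and 509 in lens and 114 and 107 in tendon, but its other probe set was called lower at -2.80 (adjusted p = 1.42e-06), so its direction depends on the probe set. Of 10 tendon and cartilage lineage genes 6 were lower and 0 higher (median -1.48): Chad, Fmod, Cilp2, Clec3b, Scx and Egr1. Scx, the transcription factor scleraxis of tendon cells, had 76.9, 83.4 and 122 in cornea, 39.4 and 44.3 in lens and 272 and 340.2 in tendon (-2.02 ± 0.20, adjusted p = 2.51e-05). Cilp2, a cartilage matrix protein, had 125, 144 and 122 in cornea, 83.6 and 76.7 in lens and 5125 and 5728 in tendon.

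Mesenchymal and adipocyte genes were mostly lower. Of 24 mesenchymal and fibroblast genes 14 were lower and 1, Twist2, was higher (median -1.03, 2 higher without cornea replicate 2). The lower count of this list ranged from 7 to 15 over all processing settings. Thy1, a fibroblast surface protein, had -2.33, 10.4 and 22.7 in cornea, -7.27 and -27.8 in lens and 492 and 506 in tendon. Meox2, a homeobox factor of limb mesenchyme, had -5.67, -0.832 and -2.65 in cornea, -11.7 and -26.5 in lens and 191 and 232 in tendon, at or below 0 on all cornea and lens arrays. Twist2 had 188, 156 and 160.2 in cornea, 2533 and 2674 in lens and 83.1 and 78.1 in tendon, its excess lying in lens. Of 21 adipocyte genes 15 were lower and 1, Apoc1, was higher (median -1.35), the higher count being 0 without either tendon array and 2 without cornea replicate 2. Over all processing settings the lower adipocyte count ranged from 7 to 15. Lpl, lipoprotein lipase, had -18.4, -9.37 and -21.9 in cornea, 27.96 and -2.18 in lens and 1369 and 1346 in tendon. Adipoq, adiponectin, had 17.4, 28.3 and 29.8 in cornea, 35.00 and 24.4 in lens and 1162 and 804 in tendon. The adipocyte markers Adipoq and Fabp4, 2 of 4 listed, summed to 34.4 to 51.6 in cornea, 98.6 to 105 in lens and 2900.2 to 2966 in tendon. The contribution of fat tissue to the tendon RNA was not tested.

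Of 21 vascular genes 11 were lower and 1 higher (median -1.30), and the lower count ranged from 3 to 12 over all processing settings. Cdh5, the cadherin of endothelial junctions, had 0.710, 7.37 and -6.02 in cornea, -3.83 and -13.8 in lens and 109.7 and 127 in tendon. Cd34 had 36.1, 29.6 and 38.05 in cornea, 21.8 and 42.01 in lens and 285 and 287 in tendon. Rgs5, a pericyte gene, had 10.6, -0.419 and 14.8 in cornea, 4.73 and 10.7 in lens and 133 and 131 in tendon. All 3 were near the bottom of the scale in the avascular tissues. The endothelial markers Pecam1, Cdh5, Kdr and Tek together summed to 220.4 to 336 in cornea, 133 to 198 in lens and 341 to 362 in tendon. Pecam1 was at or below 0 in lens and tendon and Cdh5 at or below 0 in lens. Kdr was the largest term on every cornea and lens array and overlapped tendon (104 to 293 in cornea, 121 to 198 in lens, 167 to 177 in tendon). Tek was lower than in tendon (8.28 to 20.9 in cornea, -1.04 to 12.3 in lens, 54.7 to 67.2 in tendon). Cnn1, calponin of smooth muscle, was the higher call, with 578, 1265 and 860.0 in cornea, 988 and 768 in lens and 189 and 189 in tendon. Of 12 angiogenesis inhibitors and growth factors 7 were lower and 0 higher (median -1.0004). Serpinf1, the vessel growth inhibitor PEDF, had 379, 554 and 305 in cornea, 38.3 and 28.9 in lens and 3828 and 4211 in tendon (-4.81 ± 0.23, adjusted p = 1.85e-07). Thbs2, thrombospondin 2, had 76.6, 74.8 and 70.02 in cornea, 43.4 and 49.8 in lens and 364 and 387 in tendon. Flt1, a VEGF receptor that also exists as a soluble trap, had 181, 155 and 212 in cornea, 223 and 267 in lens and 492 and 436 in tendon. The vessel growth inhibitors Serpinf1 and Thbs2 were thus lower in the avascular tissues than in tendon.

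Of 27 leukocyte genes 12 were lower and 1, Mpo, was higher (median -0.43), with 2 higher without cornea replicate 2 or tendon replicate 1. S100a9, of neutrophils, had 21.7, 160.3 and 5.56 in cornea, -108 and -169 in lens and 1519 and 1616 in tendon. Lyz2, lysozyme of macrophages and neutrophils, had 8.40, 16.8 and 5.73 in cornea, -4.02 and -7.84 in lens and 285 and 341 in tendon. Both were at or below 0 in lens. Fcer1g, a signalling chain of immunoglobulin receptors, had 183, 175 and 140.5 in cornea, 102 and 122 in lens and 2382 and 2051 in tendon. Mrc1, a macrophage receptor, had 3.14, -1.31 and 8.10 in cornea, 10.8 and 12.3 in lens and 198 and 217 in tendon. S100a9 in cornea ranged most, with cornea replicate 2 highest. The leukocyte markers Ptprc, Cd68, Lyz2 and Fcer1g summed to 349 to 423 in cornea, 332 to 353 in lens and 2634 to 2858 in tendon. Ptprc (92.2 to 129 in cornea, 82.0 to 139 in lens, 109 to 131 in tendon) and Cd68 (83.5 to 111 in cornea, 113 to 128 in lens, 82.2 to 110.5 in tendon) overlapped between tendon and cornea, so the tendon excess in the sum lay in Fcer1g and Lyz2. Of 11 Schwann cell and nerve genes 2 were lower (18.2%) and 1 higher (9.09%), near the 17.9% and 10.8% of all tested genes (median 0.07). Pmp22, a myelin protein, had 128, 146 and 126 in cornea, 717 and 361 in lens and 1665 and 2449.6 in tendon. Tubb3, a neuronal tubulin, had 291, 326 and 272 in cornea, 1779 and 1733 in lens and 179 and 152 in tendon, on a probe set of a design that can match related transcripts. Sox10 was the other lower call and was lost without tendon replicate 1. The Schwann cell markers Mbp and Pmp22, 2 of 4 listed, summed to 417 to 569.7 in cornea, 639.9 to 986 in lens and 1944 to 2739 in tendon. Mbp overlapped (271 to 443 in cornea, 268 to 279 in lens, 279 to 290 in tendon), so the tendon excess in that sum lay in Pmp22. Of 5 red blood cell genes 2 were lower (40%) and 1, Alas2, was higher (20%), compared with 17.9% and 10.8% of all tested genes (median -0.03). Hba-a1, alpha globin, had 467, 468 and 775 in cornea, 204 and 215 in lens and 1593 and 1473 in tendon. Hbb-b2 had 232, 182 and 324 in cornea, 127 and 166 in lens and 659.5 and 726 in tendon. Hba-a1 and Alas2, 2 of 3 listed markers, summed to 536 to 847 in cornea, 413 to 417 in lens and 1535 to 1635 in tendon.

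Immediate-early and cytoskeletal genes had smaller medians. Of 22 immediate-early genes 7 were lower and 1, Ier2, was higher (median -0.45, 0 higher without tendon replicate 1), with Dusp1, a MAP kinase phosphatase, at 104, 132 and 101 in cornea, 108 and 59.6 in lens and 417 and 429 in tendon and Ccn1 at 32.2, 49.2 and 36.5 in cornea, 7.45 and 3.61 in lens and 92.5 and 109 in tendon. Of 27 actin and intermediate filament genes 6 were lower (22.2%) and 3 higher (11.1%), with a median of -0.10. These shares are near the 17.9% lower and 10.8% higher of all tested genes. Gsn, the actin-severing protein gelsolin, had 947, 990.2 and 576 in cornea, 453 and 251.3 in lens and 4574 and 5115 in tendon. Msn, moesin, had 47.4, 69.1 and 33.2 in cornea, 84.7 and 33.4 in lens and 397 and 542 in tendon. Ezr, ezrin of the same family, was on the opposite side, with 551, 479.6 and 254 in cornea, 391 and 283 in lens and 113 and 116 in tendon.

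**Figure D5:**
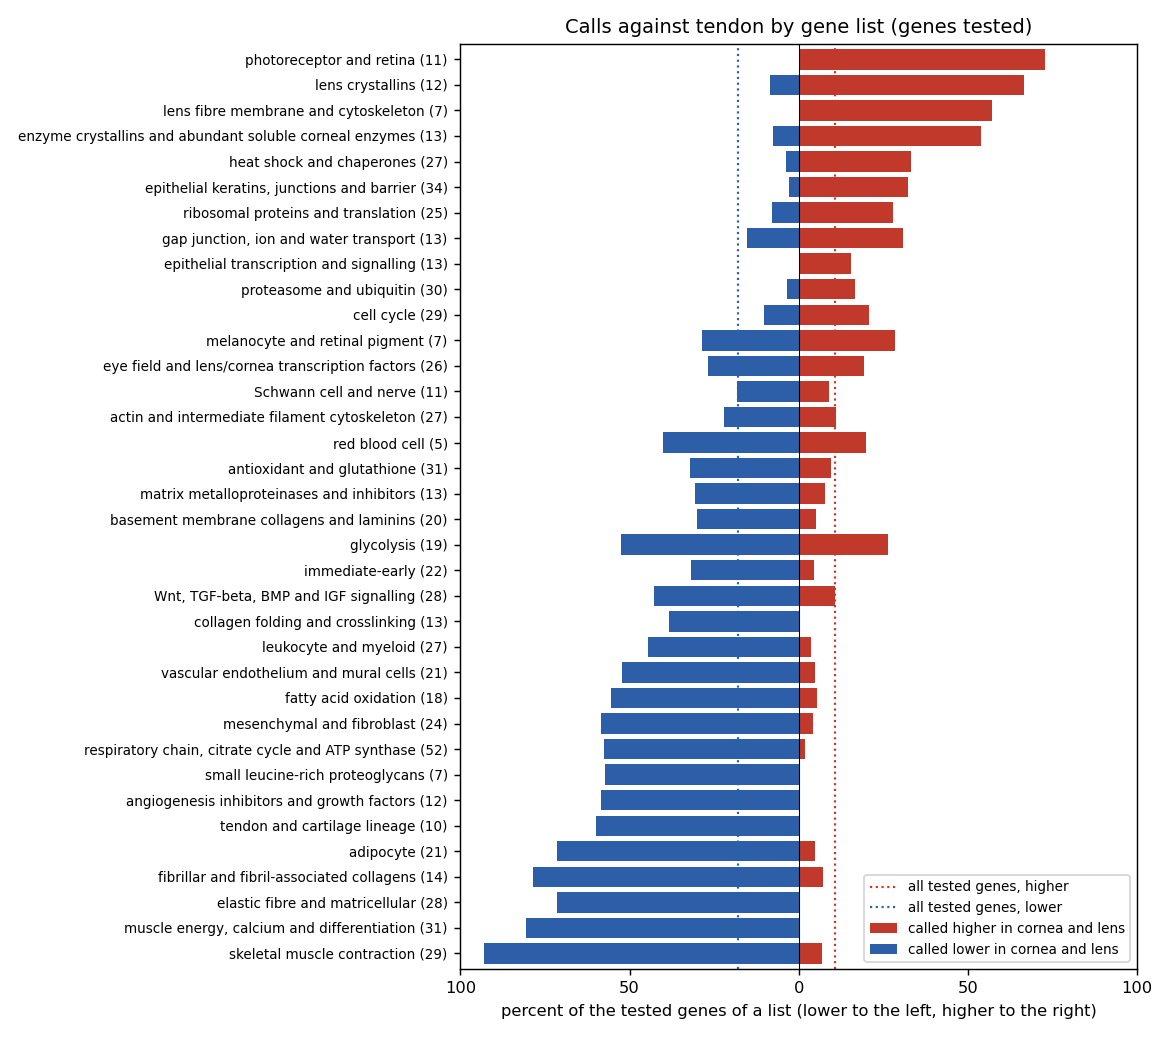
Each bar pair gives the percent of a list's tested genes called higher (right, red) or lower (left, blue) in cornea and lens than in tendon, with the number tested in brackets. Dotted lines mark all 6109 tested genes, 10.8% higher and 17.9% lower. Photoreceptor genes and crystallins reach furthest to the right and muscle lists furthest to the left, while several lists lie near the dotted lines.

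In 9 cases a list had 0 calls in 1 direction. With an unadjusted limma p under 0.05 and the same rule on sides these lists still had 0 genes in that direction, and without the rule on sides at most 1, in collagen folding and crosslinking and in elastic fibre and matricellular genes.

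Cornea and lens were also compared with each other. In the same fit 51.5% of all tested genes differed between them, 27.7% higher in cornea and 23.8% lower. Of the 660 genes higher than in tendon, 373 differed between cornea and lens, 126 higher in cornea and 247 higher in lens. Of the 1094 lower genes, 461 differed, 345 higher in cornea and 116 higher in lens. Similar levels, with a 95% interval of the cornea-minus-lens difference inside 2-fold either way, were found for 216 of the higher genes (32.7%) and 526 of the lower genes (48.1%), compared with 2328 of all 6109 tested genes (38.1%). Among lower genes near 0 in both tissues the offset itself keeps that difference small. Where every cornea and lens array had at least 100 units, 145 of 379 higher genes (38.3%) and 201 of 321 lower genes (62.6%) met the limit, compared with 1186 of 2389 tested genes (49.6%). The calls favour genes with a small spread, and the interval rests on the same spread. The shares of called genes are therefore not a like comparison with all tested genes. Lancl1, a glutathione-binding protein picked after its values were seen, had 789, 819 and 692 in cornea, 695 and 817 in lens and 159.8 and 159.9 in tendon, a 4.41-fold excess (2.14 ± 0.18, adjusted p = 9.06e-06) with a cornea-minus-lens difference of 0.02 (-0.42 to 0.46). Fgfr2, Itga6, Scd2 and Atp1b3, above tendon, met the same limit.

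Probe sets of a gene did not always give the same direction. Among the called genes, 322 had several tested probe sets, and for 18 of them another set was called in the opposite direction, including Crygd, Timp2, Tjp1, Map4, Mpeg1 and Foxn3. For 127 every set had the same call.

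In P10 cornea, given without a test, 12 of the 12 top higher genes lay above both tendon arrays and 12 of the 12 top lower genes below both. Cryaa had 1603 and 3082 in P10 cornea, Aldh3a1 had 6232 and 6973 and Pax6 had 936 and 728. Col1a1, at 6137 and 6766, and Col3a1, at 1538 and 1380.5, were nearer to tendon at P10 than in adult cornea, and Col5a2, at 1836 and 1451, lay above both tendon arrays. Fmod, at 588 and 397, remained far below tendon.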

How the data were processed

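Expression was measured on Affymetrix mouse arrays with 12488 probe sets, of which 66 controls were left out. The deposited values are a linear intensity index per probe set made by the authors. Per the labels and the series' design text, Microarray Suite 5.0 and dChip were both used. Which of the 2 programs made the deposited values and how they were scaled are not given by the sources used here. MAS5 is also named in the submitters' processing notes. No detection calls or depth accompany them, so the number of arrays limits the precision.

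Values below 0 were set to 0, 16 was added and log2 taken, with no further normalization (array trimmed means differed by at most 1.17-fold). Probe sets at or above their array's median on 2 or more of 9 arrays were tested with limma 3.58.1 in R 4.3.3, with 1 mean per tissue and age over all 9 arrays, a trended prior variance and Benjamini-Hochberg adjustment over 8154 sets. The contrast was the mean of adult cornea and adult lens minus tendon, and adjusted p-values under 0.05 counted. In data simulated for this contrast over 8154 sets, 100 sets were changed 2-fold and 100 sets 4-fold, equally in cornea and lens. All other sets had 1 common mean in all tissues. There 74% of 2-fold and 100% of 4-fold changes were recovered, and 5.95% of 185 calls were false. In the data far more sets differ, also between cornea and lens, so these rates need not carry over. The 7 adult arrays were grouped by the labels.

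Gene symbols came from the platform annotation, which gives 1 symbol for 10833 probe sets, several for 396 and none for 1193. Of the 36 gene lists, 822 of 1040 genes were on the array and 696 were tested. A gene was represented by its brightest tested probe set over the adult arrays. Besides Crygd and Cryge, the sets shown for Tubb3, Myh7, Ckm, Lox and Fcer1g and the first set of Atp2a1, among others, are of the design that can match related transcripts. Members and lists were chosen with earlier results of these data known. Named genes were the 12 highest and 12 lowest by the smaller tissue difference, with no adult value below -100 and at least 100 units in the lower of cornea and lens (or, for lower genes, in tendon), up to 3 called genes per list by the same rank, and a set of standard markers, of which Tnmd had no probe set and Pecam1 was not tested. All others, among them the isozyme pairs, Bfsp1, Gsta4, Guca1a, Cdh1, Elf3, Igfbp2, Dkk3, Fn1, Sparc, Cnn1, Ezr and Lancl1, were picked after their values were seen. Promoter sequences came from RefSeq tables (GRCm38.p6). Alternatives covered scaling, offset, filter, weights, prior variance, a replicate block, the methods' t-test and leaving out each array.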

Additional observations from a re-analysis of the deposited data

Results flagged for a closer look

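The test of adult cornea minus adult lens passed for the following genes, whose contrasts with the same tendon arrays thus differ in size between the 2 tissues. Among genes above tendon, lens exceeded cornea for Crygc (-3.15, log2 cornea minus lens here and below), Klk1b8 (-2.96), Cryge (-2.66), Crygd (-2.59), Crybb2 (-2.56), Crygb (-2.38), Cryba1 (-2.07), Cryaa (-1.86) and Sfrp1 (-1.29). Cornea exceeded lens for Aldh3a1 (3.46), Tkt (2.77), Krt12 (2.08) and Pax6 (1.34). Among genes below tendon, cornea was the higher of the transparent tissues for Col1a2 (5.47), Col1a1 (5.31), Dcn (3.73), Hba-a1 (1.34), Tnni2 (1.08), Col3a1 (0.94), Des (0.92), Myh7 (0.92), Scx (0.91) and Atp2a1 (0.73), and lens was higher for Fabp4 (-1.46), Cox6a2 (-1.14) and Myl2 (-0.97). For Tnni2, Des, Myh7, Atp2a1, Cox6a2 and Myl2 both tissues were near 0, where the offset of 16 sets the size of a log2 difference.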

How the results depend on the processing

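Leaving out each array in turn gave 575 to 1177 higher and 1066 to 1651 lower probe sets, compared with 866 and 1466 with all arrays. Calls in cornea and lens separately ranged from 193 to 519 higher and 692 to 1126 lower, compared with 436 and 1053, and the lowest counts were those without a tendon array. By the methods' t-test (at least 2-fold, at least 100 units and an unadjusted p under 0.05 in each tissue), 78 sets were higher and 589 lower, and 10 and 180 after Benjamini-Hochberg adjustment. Other scalings gave 1023 to 1074 higher and 1372 to 1413 lower sets and moved the share of higher calls from 37.1% to at most 43.2%. Requiring the array median on at least 4 arrays, which by construction drops genes found in tendon alone, gave 737 higher and 1070 lower. Same-numbered arrays did not deviate together (correlations from -0.36 to 0.20). With the replicate number as a block, a fit kept for comparison only, 901 sets were higher and 1477 lower. With only the 7 adult arrays in the fit, 814 sets were higher and 1382 lower. In that fit, calls in cornea and lens separately numbered 368 higher and 969 lower. Of 118 named probe sets that were called, 77 could be tested in all 22 settings, and 74 of these kept their call throughout. The other 41 were left out of the test in at least 1 setting. Counting only the settings in which a set was tested, 114 of the 118 kept their call and 0 changed direction. Oca2, Psmc2, Psme3 and Sox10 lost theirs without a tendon array (Psme3 also without lens replicate 1), and the cause was not tested. Genes near the array background, below 0 on some arrays, have differences limited by the offset.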
